A study of Mus musculus with 282 samples.

Results

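This account follows 8 immediate early genes in the hypothalamus of male mice, out of 14079 genes in the expression table. The members are the gene rows whose name in the deposited assembly is Fos, Junb, Egr1, Arc, Nr4a1, Ier2, Dusp1 or Btg2. Egr3, the remaining name among the 9 searched, had no row that could be matched by name and was not analysed here. The study profiled the whole hypothalamus of 282 male mice fed a high fat diet, which the study's methods describe as also high in sugar, with unstranded mRNA libraries, and it gave values in FPKM, fragments scaled to transcript length and to library size. The mice belong to 99 strains of the Hybrid Mouse Diversity Panel, a set of inbred and recombinant inbred strains, and each strain is 1 genotype. There were 43 BXD, 18 AXB or BXA, 7 CXB and 6 BXH recombinant inbred strains and 25 other inbred strains. The columns of the CXB-6/ByJ mice OB-273 and OB-274 differed by 1 constant factor, 0.9951 in each of 13765 genes above 0.5 FPKM in both, where the next most alike pair of mice had r = 0.991 over genes. They differed by less than the sampling noise, so their mean was counted as 1 sample. In all, 84 strains then had 3 mice, 13 had 2 and 2 had 1. All groups shared the sex and the diet, there was no group on another diet, and the age and the time of day of tissue collection are not given in the sources used here. One mouse, OB-627, carries 2 strain names in its labels, AXB-6/PgnJ and AXB-8/PgnJ, and was left out of every comparison of strains.

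Immediate early genes are transcribed within minutes of a stimulus, because the factors that switch them on, among them CREB and serum response factor, are already present in the resting cell and need only a signal from calcium or from the MAP kinases. Their transcripts are short-lived, so a tissue that is frozen carries a record of what its cells met shortly before. In the brain Fos is widely used as a marker of neurons that were recently active, and in the hypothalamus it is known to respond to stress, fasting, salt and light.

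The proximal promoters are shown first because the question is how far these genes moved together. RefSeq promoter entries (GRCm38.p6) were matched and are printed for 5 of the 9 names, as the 250 bases before the start, 5′ to 3′ on the strand of the gene. Egr1 was left out of this step, and Arc, Ier2 and Egr3 had no entry, so their promoters were not searched for motifs. The capitals mark the half-site of the cAMP response element, TGACG on either strand, the full element TGACGTCA, and, on the strand of the gene, the TATA box TATAAA. The full element holds the half-site on both strands, so the motifs overlap. Of 32851 promoter windows of the same length, 17.8% held the half-site, 1.55% the full element and 7.59% the TATA box.
Fos (chr12:85473640-85473889, plus strand): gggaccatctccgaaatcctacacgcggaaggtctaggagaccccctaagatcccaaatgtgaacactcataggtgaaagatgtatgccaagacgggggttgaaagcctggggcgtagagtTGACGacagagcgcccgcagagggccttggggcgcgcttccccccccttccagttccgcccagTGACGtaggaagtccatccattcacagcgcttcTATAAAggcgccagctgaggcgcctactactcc
Nr4a1 (chr15:101266596-101266845, plus strand): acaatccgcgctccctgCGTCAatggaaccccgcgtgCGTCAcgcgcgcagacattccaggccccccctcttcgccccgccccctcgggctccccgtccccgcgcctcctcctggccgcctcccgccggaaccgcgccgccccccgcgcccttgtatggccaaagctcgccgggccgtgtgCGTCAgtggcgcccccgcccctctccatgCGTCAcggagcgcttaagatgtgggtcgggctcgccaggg
Dusp1 (chr17:26508473-26508722, minus strand): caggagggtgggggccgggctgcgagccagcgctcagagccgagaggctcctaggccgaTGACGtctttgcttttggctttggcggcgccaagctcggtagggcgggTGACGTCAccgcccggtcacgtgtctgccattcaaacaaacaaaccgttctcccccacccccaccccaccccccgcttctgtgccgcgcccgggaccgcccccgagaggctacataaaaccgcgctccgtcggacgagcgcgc
Btg2 (chr1:134079156-134079405, minus strand): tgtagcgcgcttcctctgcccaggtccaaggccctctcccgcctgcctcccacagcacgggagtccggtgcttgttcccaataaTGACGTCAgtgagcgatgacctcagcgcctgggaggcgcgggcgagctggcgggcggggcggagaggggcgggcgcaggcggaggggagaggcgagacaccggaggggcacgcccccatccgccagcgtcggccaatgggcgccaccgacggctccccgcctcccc
Junb (chr8:84978749-84978998, minus strand): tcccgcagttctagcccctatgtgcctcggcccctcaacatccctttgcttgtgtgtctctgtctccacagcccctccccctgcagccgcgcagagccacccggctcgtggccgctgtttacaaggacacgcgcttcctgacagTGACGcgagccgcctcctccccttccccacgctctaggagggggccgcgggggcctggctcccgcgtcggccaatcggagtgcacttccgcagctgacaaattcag
Each of the 5 windows held at least 1 half-site, Dusp1 and Btg2 held the full element, and Fos held the TATA box with its first base 33 bases before the start. These matches describe letters only. Junb, which holds the half-site as the other 4 do, is the member whose level moved least with the others below.

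One library stood apart. The gene FPKM of mouse OB-547, strain BXD-12/TyJ, summed to 792801, where the other mice lay between 322047 and 463433. This mouse had the highest Ier2 and the lowest Btg2 of all mice. For these genes the strain test, their correlation with each other and the counts of associated genes are given with and without it. Their other values include it unless stated. Marker genes of the hypothalamus (10 of 11 found) summed to a median of 1388.6 FPKM over the mice, and none was listed at 0 in any mouse. Marker genes of the anterior pituitary (6 of 7 found), a neighbour in dissection, summed to between 0.589 and 16462 FPKM, and each of the 6 was listed at 0 in at least 1 mouse. The 5 thalamus markers summed to 17.4 to 381 FPKM and the 2 found markers of cortex and hippocampus to 2.31 to 109.4 FPKM. In a bulk sample fewer active cells and less transcript per cell cannot be told apart.

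All 8 genes were measured in every mouse, at levels around the middle or the lower part of the table. Fos (locus XLOC_007397, chr12:85473890-85477273 in mm10), the partner of Jun proteins in the AP-1 transcription factor, had 2.08 FPKM in the lowest mouse, a median of 8.38 and 28.5 in the highest, a 13.7-fold range. Its mean was 9.27 ± 4.78 FPKM (SD, n = 281). Fos had the widest relative spread of the members other than Junb, with an SD of 51.5% of the mean. Egr1 (XLOC_016806, chromosome 18), a zinc finger transcription factor, ran from 4.94 through a median of 10.9 to 44.4 FPKM, with a mean of 12.3 ± 5.11 FPKM, the highest mean of the members per length. Nr4a1 (XLOC_012576, chr15:101258394-101274800), an orphan nuclear receptor, ran from 2.99 through 6.73 to 19.1 FPKM. Its mean was 7.11 ± 2.28 FPKM. Egr1 and Nr4a1 thus spread less around their means than Fos did.

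Arc (XLOC_012882, chr15:74669083-74672570) encodes a protein of the synapse that takes part in the removal of AMPA receptors. Arc ran from 3.37 through a median of 5.68 to 16.1 FPKM, with a mean of 5.94 ± 1.70 FPKM, and its SD of 28.6% of the mean was the narrowest of the members. Dusp1 (XLOC_015897, chr17:26505590-26508552), a phosphatase that switches MAP kinases off, ran from 5.42 through 10.7 to 24.97 FPKM around a mean of 11.1 ± 3.40 FPKM. The same mouse, OB-1387 of AXB-13/PgnJ, was lowest for Fos and for Dusp1, and the same mouse, OB-323 of BXH-6/TyJ, was highest for both. Btg2 (XLOC_001600, chr1:134075170-134079120), an antiproliferative protein, ran from 0.853 through 3.68 to 12.7 FPKM, with a mean of 4.03 ± 1.59 FPKM. Ier2 (XLOC_035568, chr8:84661331-84662852), a small nuclear protein, ran from 0.641 through 2.51 to 8.74 FPKM, with a mean of 2.59 ± 0.915 FPKM. Mouse OB-547 gave the lowest Btg2 and the highest Ier2.

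Junb (XLOC_035575, chr8:84976909-84978748), another AP-1 subunit, behaved unlike the rest. Its median was 1.59 FPKM and its highest value 11.7 FPKM, and 60 of 281 mice lay below 0.01 FPKM although none was listed at 0. Only 165 mice had more than 1 FPKM. Its single deposited transcript held 52.9% of the gene's mean and had a median of 0.00361 FPKM, so nearly as much of the gene value is not accounted for by it. Such a gap was not particular to Junb: the 2 deposited Nr4a1 transcripts held 11.8% and 13.6% of the mean of their gene. Junb values near 0 and in the range of several FPKM occurred within the same strain: in C3H/HeJ the 3 mice had 0.522, 10.4 and 0.00265 FPKM. No exon of another GENCODE M21 gene overlaps the locus of any of the 8 members, on either strand.

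**Figure D1:**
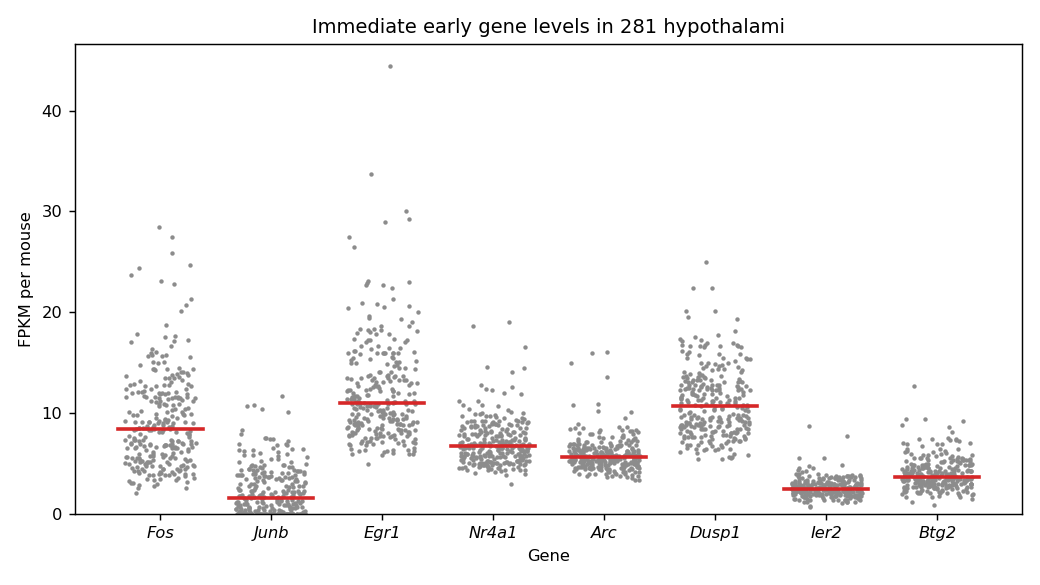
FPKM (vertical axis) of each immediate early gene in each of 281 mice, 1 grey point per mouse and gene, with the median as a red bar. Egr1 and Dusp1 have the highest medians, 10.9 and 10.7 FPKM, and Junb has many mice close to 0.

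Most of the spread lay between mice of the same strain. On the scale of log2(FPKM + 1), which understates changes of low genes, the SD within strains was 0.60 for Fos, 1.033 for Junb, 0.43 for Egr1, 0.33 for Nr4a1, 0.28 for Arc, 0.33 for Dusp1, 0.39 for Btg2 and 0.30 for Ier2. The median over all genes was 0.18. Each member was thus more variable between genetically identical mice than the typical gene, the spread of Fos exceeded that of 98.8% of all genes and 45 of 14079 genes had a larger one than Junb. In CXB-7/ByJ, the strain with the widest Fos range, the 3 mice, in the order of their numbers, had 17.2, 24.4 and 2.77 FPKM of Fos. The same mice had 17.3, 33.7 and 9.54 FPKM of Egr1, and 10.4, 19.1 and 5.71 FPKM of Nr4a1. The mouse high in 1 of these 3 genes was high in the others.

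The reference strains showed the same spread. The 3 mice of C57BL/6J, in the order of their numbers, had 2.57, 3.17 and 9.01 FPKM of Fos, and 6.44, 8.15 and 10.8 FPKM of Dusp1. Those of DBA/2J had 6.53, 13.8 and 2.96 FPKM of Fos. Those of A/J had 9.66, 12.7 and 14.8 FPKM of Fos and 11.7, 15.4 and 17.2 FPKM of Dusp1. The Fos values of the 3 C57BL/6J mice and of the 3 DBA/2J mice overlap, and those of A/J lie above all 3 C57BL/6J mice but overlap with DBA/2J.

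Strain differences passed the test in 7 of the 8 genes, which is close to what the table gives as a whole. The moderated F test of limma on log2(FPKM + 1) between 99 strains, with Benjamini-Hochberg adjustment over 14079 genes, called 74.9% of all genes. Adjusted p values were 3.87e-06 for Dusp1, 0.000267 for Egr1, 0.000930 for Ier2, 0.00736 for Nr4a1, 0.0102 for Btg2, 0.0109 for Fos and 0.0409 for Arc. Junb did not pass, with an adjusted p of 0.326, nor did its deposited transcript, with an adjusted p of 0.259 over transcripts, of which 45.9% passed. The intraclass correlation, here called strain share, was 0.299 for Dusp1, 0.231 for Egr1, 0.208 for Ier2, 0.162 for Nr4a1, 0.153 for Btg2, 0.151 for Fos, 0.115 for Arc and 0.026 for Junb. The median over the 8 genes was 0.157 and that over all genes 0.221, so only Dusp1 and Egr1 exceeded the typical gene. Without mouse OB-547 the same 7 genes passed, with a strain share of 0.201 for Ier2 and 0.144 for Btg2. With a Kruskal-Wallis test, adjusted in the same way, 3 of the 8 passed (Dusp1, Ier2 and Egr1) although 73.0% of all genes did. Without the mice numbered as second replicates in each strain, 0 of the 8 passed in limma, where 45.6% of all genes did, 0 of the 8 had an unadjusted p under 0.05, and the strain share of Fos was -0.21. Replicates were numbered in accession order.

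**Figure D2:**
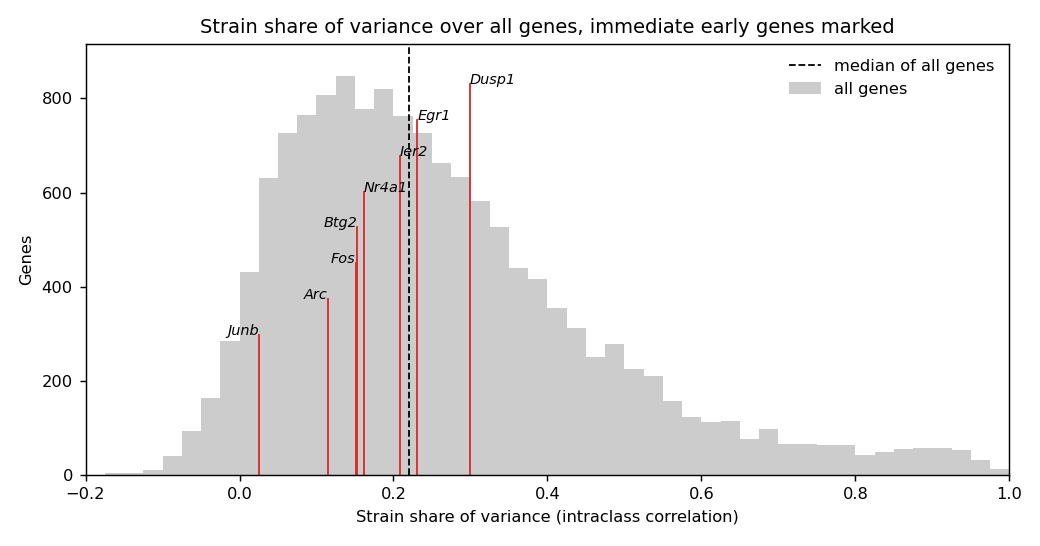
Histogram of the strain share of variance (horizontal axis, intraclass correlation of log2(FPKM + 1)) over 14079 genes (vertical axis, number of genes per bin), with each immediate early gene as a red line whose height carries no value and the median of all genes, 0.221, as a dashed line. Junb at 0.026 sits lowest of the 8 and Dusp1 at 0.299 highest.

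The strains were then ordered by strain mean. Among 97 strains with at least 2 mice, Fos means ran from 3.17 FPKM in AXB-13/PgnJ to 20.9 FPKM in BXD-34/TyJ, a 6.61-fold range. The 3 mice of AXB-13/PgnJ had 2.08, 4.40 and 3.03 FPKM, and the 2 of BXD-34/TyJ had 14.4 and 27.5 FPKM. The ends of the order do not overlap. Of the 96 pairs of strains next to each other, 0 were free of overlap between their mice for Fos. The count was 0 as well for Egr1, Arc, Nr4a1, Ier2, Dusp1 and Btg2, and 2 for Junb. In 1 of these 2 pairs, BXH-19/TyJ and BXD44, all mice lay below 0.01 FPKM. The strain orders were taken from these same values, so neither the ends nor these counts are a test, and the counts were not computed for other genes. Egr1 ran from 6.80 FPKM in BXD-38/TyJ to 28.5 in BXD73, where a single mouse had 44.4 FPKM and the other 2 had 18.2 and 23.0. Dusp1 ran from 6.27 FPKM in BXD-38/TyJ, whose 3 mice lay between 6.06 and 6.41, to 19.1 FPKM in AXB-8/PgnJ, whose 2 mice had 15.8 and 22.4. Mouse OB-627, whose labels name AXB-6/PgnJ and AXB-8/PgnJ, had 11.5 FPKM of Dusp1 and is in the mean of neither strain.

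The same strains recurred at the ends for several genes. BXH-6/TyJ was among the 10 highest strains for all 8 genes, AXB-8/PgnJ for 7, and BXD-34/TyJ and LG/J for 6 each. AXB-13/PgnJ was among the 10 lowest for 6 genes, BXD-38/TyJ for 5, and AXB-6/PgnJ and BXD75 for 4 each. Mouse OB-627, which could belong to AXB-8/PgnJ or to AXB-6/PgnJ, was not counted in either. It had 5.56 FPKM of Fos, where the AXB-8/PgnJ mice had 12.3 and 23.7 and the AXB-6/PgnJ mice 4.37 and 6.51. BXD-12/TyJ, the strain of mouse OB-547, was among the 10 lowest for 4 genes and among the 10 highest for 1. The LG/J mice had 15.7, 22.8 and 23.1 FPKM of Fos and the BXD75 mice 3.33, 4.42 and 4.44 FPKM. These do not overlap, but both strains were picked from the ends of the Fos order. C57BL/6J was among the 10 lowest for 3 genes. BXH-6/TyJ also shows the limit of 3 mice: its Fos values were 8.60, 20.1 and 28.5 FPKM, so its lowest mouse lay near the median of all mice. Strain means were not adjusted for the place of a mouse in a run of consecutive mouse numbers, described below. Mean Fos was 6.98 FPKM at the first and 14.0 FPKM at the third place of runs of 3. Of the strains named here BXH-6/TyJ, LG/J and C57BL/6J have runs of 3, and the others do not. The part of place in the strain orders was not tested.

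Within strains the genes moved together, Junb less than the rest. Each mouse was expressed as its deviation from its strain mean. Each pair was tested with limma in a model with strain as a factor, adjusted over the 14078 other genes. A pair was counted when both of its fits passed, with each member in turn as the predictor. In all, 22 of 28 pairs passed: all 21 pairs without Junb, and Junb with Ier2. For comparison, 3.25% of all genes were associated with Fos in either direction, 11.3% with Egr1, 16.4% with Nr4a1, 14.3% with Dusp1, 27.3% with Arc, 1.83% with Btg2, 54.5% with Ier2 and 17.5% with Junb. The median r over the 28 pairs was 0.553 within strains, and the median of all genes with Fos was 0.0076.

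Fos, Egr1, Nr4a1 and Dusp1 formed the tightest group. Their 6 pairs had within-strain r between 0.732 and 0.833 and rho between 0.731 and 0.844. For Fos and Egr1 r was 0.833 and rho 0.844 over all mice with a strain, with an adjusted p of 1.40e-44 in limma. For Fos and Dusp1 r was 0.827 and rho 0.821, and for Egr1 and Nr4a1 r was 0.800 and rho 0.805. Permuting mice within strains gave p = 1e-05 for r and for rho of each of these 6 pairs, which is the smallest value that 100000 permutations can give. After removal of the 2 most extreme mice in the first gene of a pair, the 6 values of r lay between 0.720 and 0.825. Ranked among all 14078 other genes, Egr1 was the gene most like Fos, Dusp1 the second and Nr4a1 the third, and Fos was the gene most like Dusp1, like Egr1 and like Btg2.

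Arc, Btg2 and Ier2 followed this group less closely. The correlation of Arc was highest with Egr1 (r = 0.667, rho = 0.629) and lower with Fos (r = 0.417, rho = 0.431), and Egr1 ranked the second among all genes for Arc. Btg2 had r = 0.638 and rho = 0.638 with Fos, and r = 0.305 and rho = 0.296 with Arc, the weakest of the pairs without Junb. Ier2 had r = 0.608 and rho = 0.598 with Dusp1, with Dusp1 ranked first among all genes for Ier2. Permutation p values were at most 0.000620 for each of the 21 pairs without Junb. Without mouse OB-547 the r of Ier2 and Btg2 was 0.518 in place of 0.451.

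Junb followed the others least closely. Its r with the other members lay between 0.0442 for Arc and 0.331 for Ier2, and with Fos it was 0.129, rho 0.114 (permutation p = 0.0808 and 0.115). Of its 7 pairs 4 had an unadjusted permutation p of r under 0.05, at 1e-05 for Ier2, 0.0137 for Nr4a1, 0.0173 for Dusp1 and 0.0236 for Btg2. The pair of Junb and Ier2 had an adjusted p of 0.00360 in limma, 0.0270 without mouse OB-547, and 0.224 once the first principal component of all other genes was a covariate. The single deposited Junb transcript had r = 0.0532 with the Fos gene. Junb lay below 0.01 FPKM in 60 of 281 mice, and the part of these values in the result was not tested.

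**Figure D3:**
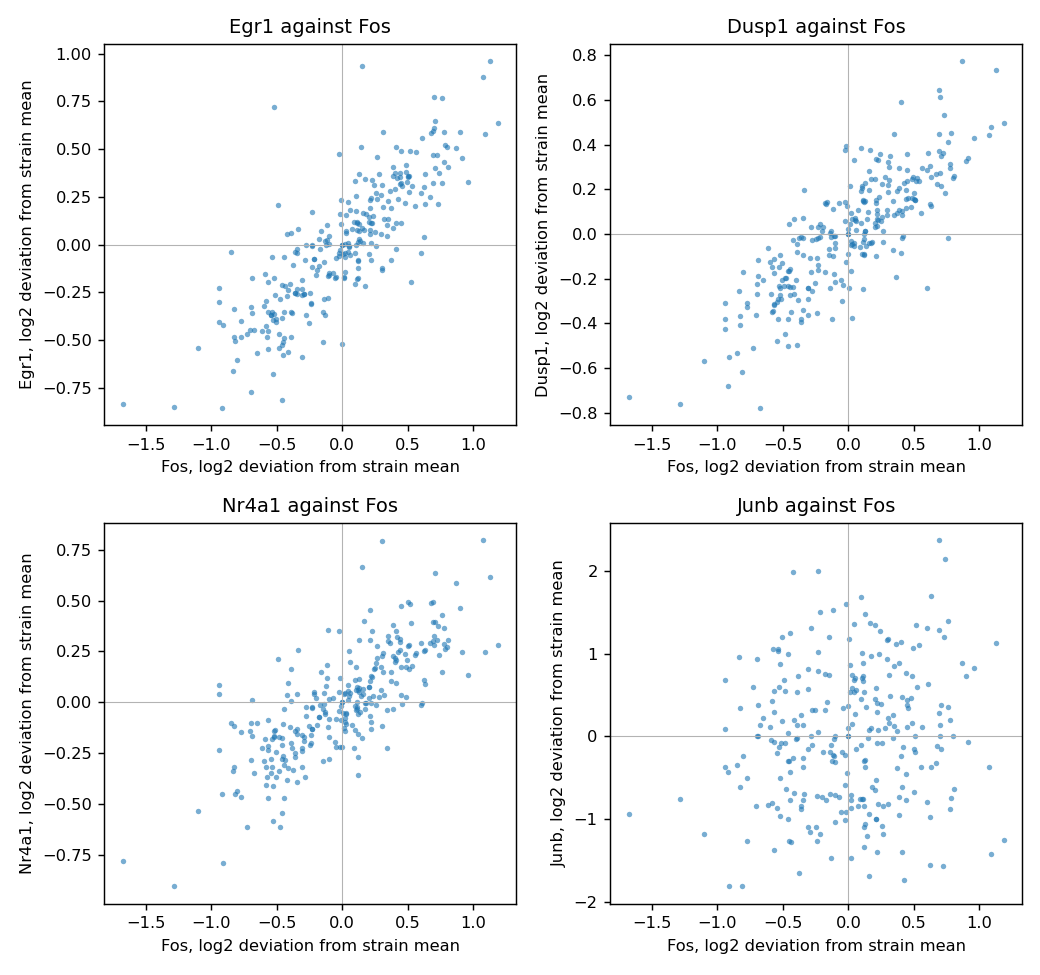
Deviation from the strain mean in log2(FPKM + 1) of Egr1, Dusp1, Nr4a1 and Junb (vertical axes) against that of Fos (horizontal axes), 1 point for each mouse with a strain. The first 3 panels rise along the diagonal, with r of 0.833, 0.827 and 0.778, and the Junb panel is a cloud with r of 0.129.

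Each set of strains had a positive median r over the 21 pairs without Junb. It was 0.655 in the 47 AXB and BXA mice, 0.544 in the 126 BXD mice, 0.845 in the 16 BXH mice, 0.721 in the 20 CXB mice and 0.578 in the 71 mice of the other inbred strains. Among the 6 pairs of Fos, Egr1, Nr4a1 and Dusp1 the lowest r in any set was 0.674. Of the 21 pairs the lowest were in the other inbred strains, with r = 0.0979 for Arc and Btg2 and 0.155 for Fos and Arc. The 7 pairs with Junb had medians from 0.0531 in BXD to 0.595 in BXH mice. A first component held 59.3% of the within-strain variance of the 8 standardised genes, and 67.1% of that of the 7 without Junb.

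Over strain means the order of the pairs was partly different. Over 99 strains, with p values from 100000 permutations and 28 correlations computed, r was 0.839 for Fos and Egr1 (rho 0.826), 0.805 for Egr1 and Nr4a1 (rho 0.798), 0.774 for Fos and Nr4a1 (rho 0.743), 0.747 for Fos and Dusp1 (rho 0.714) and 0.723 for Nr4a1 and Btg2 (rho 0.640), with p = 1e-05, the smallest value possible, for r and rho of each. After removal of the 2 most extreme strains in the first gene of a pair these values were 0.834, 0.792, 0.746, 0.716 and 0.654. The remaining pairs of Fos, Egr1, Nr4a1 and Dusp1 had 0.598 for Egr1 and Dusp1, where within strains they had 0.754, and 0.687 for Nr4a1 and Dusp1, with 0.732 within strains. Ier2 had r between 0.210 and 0.285 with the other 6 genes besides Junb, where within strains it had r between 0.423 and 0.608. Arc had values in that range with Dusp1 (0.235) and Btg2 (0.241), and higher ones with Egr1 (0.552), Nr4a1 (0.486) and Fos (0.404). The difference between the within-strain and the strain-mean values was not tested. The median r over the 28 pairs of strain means was 0.277, and 22 pairs had an unadjusted permutation p of r under 0.05. Strain means of 3 mice carry much of the spread between mice, so a strain-mean correlation is not independent of the within-strain one.

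**Figure D4:**
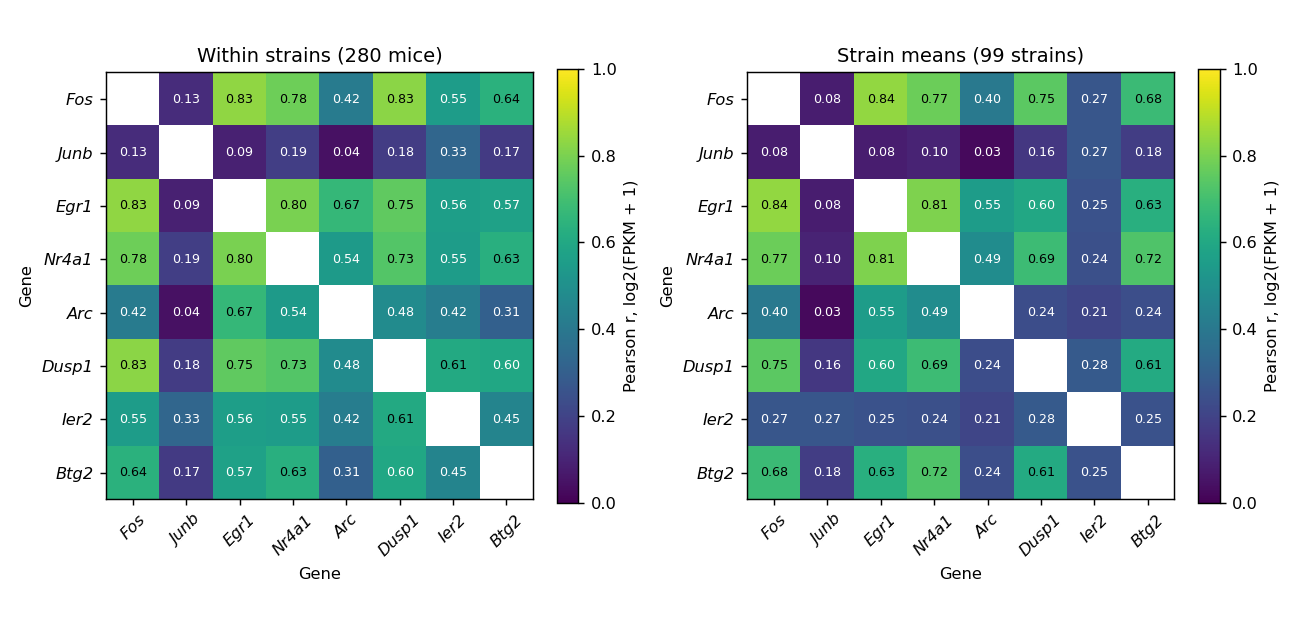
Pearson r of log2(FPKM + 1) for each of the 28 pairs of immediate early genes, on the left within strains over all mice with a strain and on the right over 99 strain means, with colour and number giving r. The 6 pairs of Fos, Egr1, Nr4a1 and Dusp1 lie between 0.732 and 0.833 on the left, and on the right the pair of Egr1 and Dusp1 has 0.598 and those of Ier2 other than with Junb lie between 0.210 and 0.285. Mouse OB-547 is included.

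Among the genes outside the group, the one most like it within strains was Npas4, a transcription factor induced by neuronal activity (3.31 ± 1.18 FPKM, n = 281). Its mean r with the 8 members was 0.563, and r was 0.775 with Fos and 0.777 with Egr1. Tob1 (15.5 ± 2.02 FPKM) had a mean r of 0.490 and Tob2 (6.85 ± 1.06 FPKM) of 0.418; both are relatives of Btg2 in the family of antiproliferative proteins, and Tob1 was the non-member gene most like Btg2 (r = 0.615). Sik1, a kinase that restrains CREB-dependent transcription, had a mean r of 0.379. Ddit4, an inhibitor of mTOR signalling, had 0.378, Cyr61, a secreted matrix protein, had 0.359, Atf4, a transcription factor of the stress response, had 0.347, and Pim3, a kinase, had 0.347. Gm17275 had a mean r of 0.391, and the row XLOC_032530, whose transcripts are not among those used here, had 0.437. Each of these 10 genes passed the limma test with at least 6 of the 8 members. They were picked by this same correlation, so that count is not a further test.

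Some members had neighbours of their own. Arc was most like R3hdm4 (r = 0.677), Egr4, an Egr family transcription factor (r = 0.662), and Inf2, a formin that acts on actin (r = 0.635). Ier2 was most like Atf4 (r = 0.60), Nubp2 (r = 0.549) and Sepw1, a selenoprotein (r = 0.549), and 54.5% of the table was associated with it. The rows most like Junb reached r = 0.354 for XLOC_010413, 0.352 for the joint locus of Ino80b and Wbp1 and 0.348 for Tle2, a corepressor. Genes that moved against the members included Ate1, with a mean r of -0.37, and Wdfy3, an autophagy adaptor, with -0.37.

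The number of genes that moved with a member depended on 1 mouse. With higher Fos, 129 genes (0.916%) were higher and 2.34% of all genes lower in limma. Without mouse OB-547 the counts were 765 and 1104. For Btg2 198 higher (1.41%) and 60 lower genes (0.426%) became 471 higher genes among 1143 in all. For Junb the 1460 higher (10.4%) and 999 lower genes (7.1%) became 51 and 53 without it. For Egr1 3.96% higher and 7.31% lower became 8.56% and 10.5%. With higher Nr4a1 6.5% of genes were higher and 9.94% lower, 2315 in all, which became 3490 without it. With higher Dusp1 7.15% and 7.17% were higher and lower, with higher Arc 13.9% and 13.4%, and with higher Ier2 31.1% and 23.4%. Without mouse OB-547 the 2 values for Ier2 became 23.2% and 18%.

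Other immediate early genes followed Fos in part. Of 23 such genes found of 27 listed, 10 were higher with higher Fos and 0 lower, against 0.916% and 2.34% of all genes, and 15 were higher with higher Egr1 and 0 lower, against 3.96% and 7.31%. Without mouse OB-547, 13 were higher with Fos, against 5.43% of all genes. Their median mean r was 0.217, where the median of all genes was 0.014. Besides Npas4, Sik1 and Cyr61, the polo-like kinase Plk3 had r = 0.317 with Fos. Klf6 and Homer1 had a mean r of -0.061 and -0.090. Of the other Fos and Jun family genes (4 found of 7), 0 passed with Fos in limma and 3 had an unadjusted p under 0.05. Without mouse OB-547, 2 of the 4 were higher with Fos, Jun and Jund. With Egr1 3 were higher: Jund (r = 0.216), Fosl2 (0.227) and Jun (0.217), while Fosl1 had r = 0.060. Of the Egr and Nr4a families (2 found of 4), Egr4 was higher with Fos (r = 0.297) and Nr4a2 had r = 0.170. The MAP kinase phosphatases Dusp4, Dusp6 and Dusp14 (3 found of 5) were all higher with Egr1, with r of 0.224, 0.324 and 0.227. With Fos 0 of them passed, with 1 at an unadjusted p under 0.05, and without mouse OB-547 1 passed, Dusp6, which was higher. The 3 found genes of the BTG and TOB family, Btg1, Tob1 and Tob2, were all higher with Fos.

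Genes that act before or after the immediate early genes were described in the same way. Among the 14 kinases and factors that act upstream, the median r with Fos was -0.119, and Srf, which binds serum response elements, had 0.109. With Fos, 0 of the 14 were higher and 1 lower, against 0.916% and 2.34% of all genes. Without mouse OB-547, 1 was higher and 5 were lower, against 5.43% and 7.84% of all genes. With Ier2, 3 of the 14 were higher and 8 lower, where 31.1% of all genes were higher and 23.4% lower. Without mouse OB-547, 3 were higher and 5 lower with Ier2, against 23.2% and 18% of all genes. Of the 6 delayed activity-regulated genes found of 7, 0 passed with Fos in limma, and 0 had an unadjusted p under 0.05. Vgf, a neuropeptide precursor, had r = 0.128 and Bdnf r = -0.064.

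Clock genes, glucocorticoid-induced genes and heat shock genes had few members that passed with Fos. Of 11 clock genes found of 13, only Per1, itself inducible, was higher with Fos (r = 0.301), and their median r with Fos was 0.051. Of 10 genes induced by glucocorticoids, 1 was higher with Fos, the NF-kappaB inhibitor Nfkbia (r = 0.290), while Fkbp5 had r = -0.19 and Sgk1 0.085. Of 6 heat shock genes, 1 was higher with Fos, the cochaperone Dnajb1 (r = 0.251), and their median r was 0.101. These counts are set beside 0.916% of all genes higher and 2.34% lower with Fos. Without mouse OB-547 they became 2 higher and 1 lower clock genes, 2 higher glucocorticoid-induced genes and 2 higher heat shock genes, with 5.43% of all genes higher and 7.84% lower.

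Tissue markers moved with some members more than with others. The summed cortex and hippocampus markers had a within-strain r of 0.467 with Arc, 0.262 with Dusp1, 0.177 with Egr1 and 0.011 with Fos. The oligodendrocyte sum had r = 0.390 with Arc and the microglia sum r = 0.439 with Ier2. The microglia sum had a median of 130.3 FPKM, and the Aif1 locus alone had a mean of 98.6 FPKM. That locus had r = 0.444 with Ier2, while Csf1r had 0.023, Cx3cr1 -0.093, Tmem119 0.071 and P2ry12 0.013. The anterior pituitary sum had r = 0.332 with Btg2 and 0.047 with Fos, and the neuron sum had r = -0.034 with Fos. The endothelium sum had r = -0.25 and the blood sum r = 0.195 with Fos. Of the 4 endothelial markers 1 passed with Fos, Flt1, a receptor for vascular growth factors, which was lower (r = -0.25, adjusted p = 0.0344). The part of these cells in the results was not tested. With the sums of 5 neighbouring tissues as covariates, 22 of the 28 pairs still passed, so this count was as large with these 5 sums in the model; the sums of cell types were not in it. The first principal component of all other genes, 14.2% of their within-strain variance without mouse OB-547, had r = 0.488 with Ier2, 0.375 with Arc, 0.282 with Fos and 0.187 with Btg2, and with it as a covariate 21 pairs passed.

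One pattern was noticed only after the values had been seen. Each mouse carries a number in its label, and in 47 strains the 3 mice have consecutive numbers and a library each. CXB-6/ByJ, where both later columns are 1 library, was left out. In these 141 mice Fos increased with the place in the run. The mouse with the lowest number had a mean of 6.98 ± 2.77 FPKM (SD, n = 47), the next 11.1 ± 4.18 FPKM and the last 14.0 ± 5.37 FPKM. The last mouse was above the first in 43 of 47 strains, by 0.88 ± 0.75 on the log2 scale (SD over strains), a 1.84-fold difference on the scale of FPKM + 1. What the numbers stand for is not given in the sources used here, and the cause was not tested.

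Fos was the first of 14079 genes in this test. In a limma model with strain as a factor the slope was 0.44 ± 0.048 log2 units per place (SE, adjusted p = 1.53e-10). The test called 148 genes higher with a later place (1.05%) and 387 lower (2.75%), and 7 of the 8 immediate early genes were among the 148. With both columns of CXB-6/ByJ counted as separate mice the counts were 74 and 238, and the same 7 were among the 74. Egr1 had a slope of 0.28 (adjusted p = 2.67e-08), Nr4a1 of 0.22 (6.98e-08), Dusp1 of 0.22 (2.82e-07), Btg2 of 0.20 (0.000177), Ier2 of 0.16 (0.000312) and Arc of 0.12 (0.00374). The slope of Junb was 0.04 (adjusted p = 0.858). By p value Fos, Npas4, Egr1, Nr4a1 and Dusp1 took the first 5 places of the table in this order, Btg2 the eighth and Ier2 the ninth. The median slope of all genes was 0.0016.

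The other genes except Junb followed the same course with smaller steps. Mean Egr1 was 10.9 ± 5.61, 14.1 ± 4.89 and 16.2 ± 4.84 FPKM at the first, the second and the third place, and the third mouse was above the first in 41 of 47 strains. Mean Dusp1 was 9.68 ± 2.38, 12.3 ± 3.13 and 13.6 ± 3.88 FPKM (41 of 47 strains). Mean Nr4a1 was 6.21 ± 1.51, 8.04 ± 2.75 and 8.77 ± 1.79 FPKM (40 of 47 strains). Btg2, Arc and Ier2 were higher in the third mouse in 38, 36 and 36 strains, and Junb in 23 of 47. A permutation test that flipped the sign of the difference of each strain 100000 times gave p = 1e-05, the smallest value possible, for Fos, Egr1, Nr4a1, Dusp1 and Ier2, 2e-05 for Arc, 4e-05 for Btg2 and 0.700 for Junb. Most of the difference lay between the first and the second mouse, at 0.58 log2 for Fos, with 0.30 between the second and the third. Between the first and the second place 5 of the 8 genes passed in limma. Between the second and the third 0 passed, as did 0 genes of the table, with 4 of the 8 higher at an unadjusted p under 0.05.

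The mice of other strains gave the same direction. In 47 other strains 2 mice have consecutive numbers, and these 94 mice share no animal with the runs of 3. Fos had a mean of 6.50 ± 2.78 FPKM in the mouse with the lower number and 9.99 ± 4.67 FPKM in the next (SD, n = 47), and it was higher in the second in 43 of 47 strains. The limma test called 4 genes of 14079 (0.0284%), all higher in the second mouse: Fos by 0.53 ± 0.057 log2 (SE, adjusted p = 2.68e-08), Dusp1 by 0.27 (0.000240), Egr1 by 0.38 (0.000684) and Npas4 by 0.27 (0.00395). A total of 0 genes were lower in limma, with 361 lower at an unadjusted p under 0.05. Without the strain of mouse OB-547 Nr4a1 passed as well, with an adjusted p of 0.0343. Nr4a1 did not pass, at 0.23 log2 and an adjusted p of 0.0672, nor did Ier2 (0.20 log2, 0.375), Arc (0.16, 0.688), Btg2 (0.12, 0.688) and Junb (0.09, 0.894). The 43 mice whose number stands in no run had a mean Fos of 6.90 ± 3.21 FPKM and a mean Egr1 of 9.92 ± 3.22 FPKM, near the values of the first mice of the runs.

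**Figure D5:**
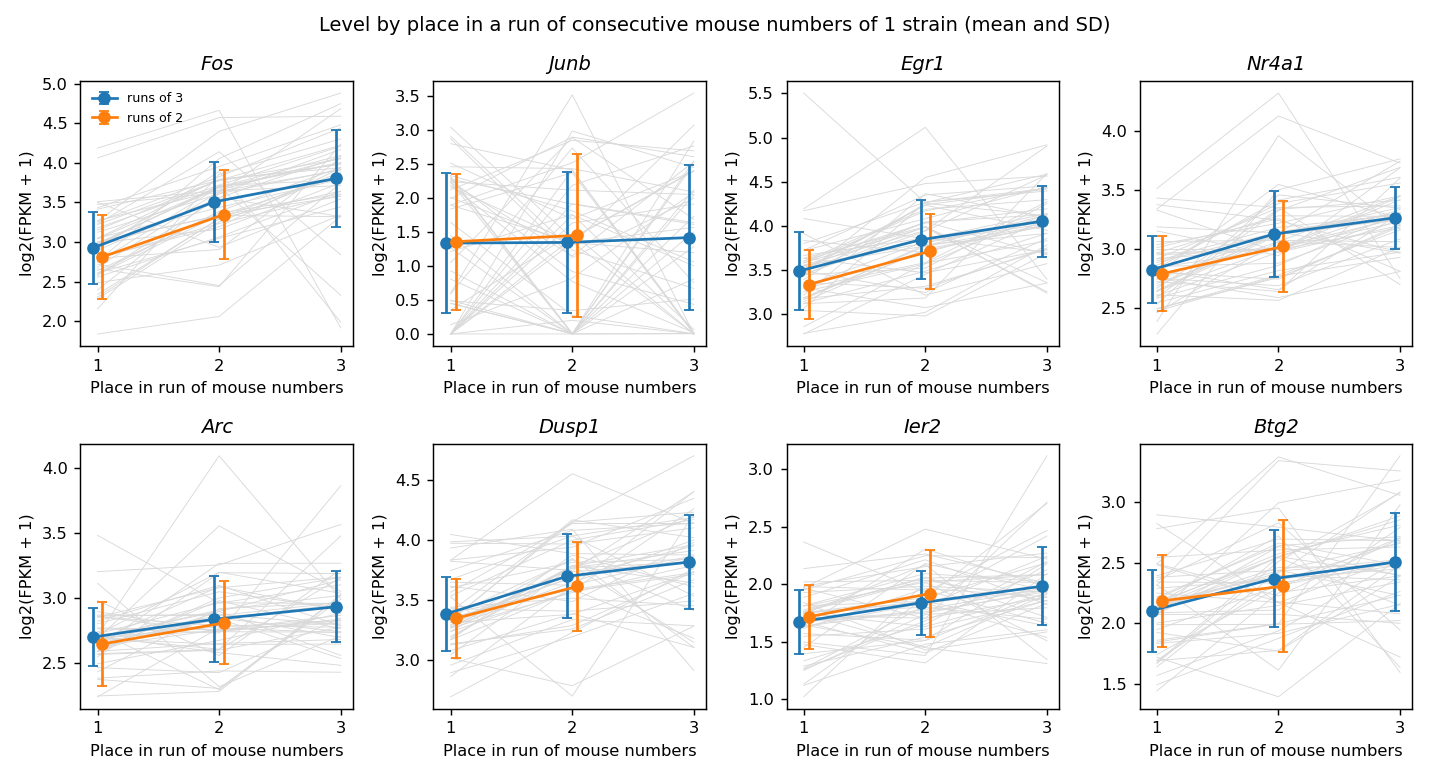
log2(FPKM + 1) of each immediate early gene (vertical axes) against the place of a mouse in a run of consecutive numbers of its strain (horizontal axes), with the mean and SD of 47 strains with runs of 3 in blue, of 47 other strains with runs of 2 in orange, and grey lines joining the 3 mice of a strain. Fos rises from a mean of 6.98 FPKM at the first place to 14.0 FPKM at the third, and Junb stays level.

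Place in the run took up a large part of the spread inside these strains. In the runs of 3 it accounted for 48.1% of the within-strain sum of squares of Fos, 40.1% for Egr1, 39.4% for Nr4a1, 38.04% for Dusp1, 26.6% for Btg2, 24.8% for Ier2, 18.9% for Arc and 0.196% for Junb, with a median of 2.28% over all genes. The difference of the third and the first mouse in Fos was 1.15 ± 0.38 log2 in 21 BXD strains, where it was positive in all 21, and 0.59 ± 0.63 in 15 other inbred strains, where it was positive in 13. In 2 CXB strains it was -0.35 ± 2.72, positive in 1. The other, CXB-7/ByJ, had 2.77 FPKM in its last mouse.

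The pairs were also fitted with place as a covariate, where mice in no run took the first place. This model has the same steps for all strains, so steps that differ between strains stay in the correlations. With place as a covariate, within-strain r was 0.736 for Fos and Egr1 and 0.731 for Fos and Dusp1, 20 of the 28 pairs passed, and the median r was 0.399 in place of 0.553. The pairs of Arc with Fos (adjusted p = 0.184) and of Arc with Btg2 (0.164) no longer passed. With place in the model 27 genes were higher and 11 lower with higher Fos. With place as a covariate the strain share of Fos was 0.261 in place of 0.151, that of Dusp1 0.413 in place of 0.299 and that of Egr1 0.305 in place of 0.231, and the median over all genes was 0.226. The same 7 genes passed the strain test in that model. Its part in the strain and pair results beyond these values was not tested.

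The calls on place held with other scalings and covariates. With quantile normalization, with the mapped reads and the share of uniquely mapped reads as covariates, with the 5 tissue marker sums as covariates and with a pseudocount of 0.1, 7 of the 8 genes were higher with a later place in the runs of 3, and the slope of Fos lay between 0.44 and 0.48. Of the clock genes 1 of 11 was called in the runs of 3, Clock, which was lower (-0.09 log2 per place, adjusted p = 0.0285). Of the glucocorticoid-induced genes 1 of 10 was called, Fkbp5, which was lower (-0.08, 0.0375), and of the heat shock genes 0 of 6, with 2 at an unadjusted p under 0.05. Of the other immediate early genes 4 of 23 were higher: Npas4 (0.23), Cyr61 (0.09), Gadd45g (0.07) and Csrnp1 (0.06), and of the BTG and TOB family 2 of 3, Tob1 and Tob2. Markers of other cell types moved with place as well. Of 4 endothelial markers Flt1 was lower (-0.09, adjusted p = 0.00460), with 3 of 4 lower at an unadjusted p under 0.05. Slc1a3, a glutamate transporter of astrocytes, was lower (-0.06, 0.0248; 1 of 4 astrocyte markers), 1 of 4 oligodendrocyte markers, Mog, was higher (0.06, 0.0482), with 3 of 4 higher at an unadjusted p under 0.05, and 1 of 5 microglia markers, the Aif1 locus, was higher (0.05, 0.0448). The part of these cells in the result was not tested.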

How the data were processed

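The table holds hypothalamic RNA of 282 male mice, 1 column per mouse, from unstranded libraries. Per the study's methods and the submitters' processing notes, reads were mapped to mm10 with STAR 2.3.1, transcripts were assembled per strain with Cufflinks 2.2.0 and merged with GENCODE M2, and the authors quantified each mouse with Cuffnorm 2.2.1. The deposited FPKM table holds features above 0 in 100 mice and above 1 FPKM in 50, and 0 columns of values were left out. The values carry no counts, so depth per mouse is not known from them and the SD over mice shows the precision.

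The columns of mice OB-273 and OB-274 of CXB-6/ByJ differed by a constant factor, so their mean was used as 1 replicate and counted once. This strain was left out of the runs of mouse numbers, and where place was a covariate its mean took both later places in equal parts. FPKM were transformed to log2(FPKM + 1). Strain differences, within-strain associations and place in a run of mouse numbers were fitted over all 14079 genes with limma 3.58.1 in R 4.3.3, with Benjamini-Hochberg adjustment at 0.05. These fits were tested on simulated data. Correlations, permutations (100000) and figures used Python 3.11.15, numpy 2.4.6, pandas 2.3.3, scipy 1.17.1 and matplotlib 3.10.9. Named genes are all members, the 10 other genes with the highest mean within-strain r and the 3 nearest to each member, and in each list those with the largest mean r, with further members of a list named after their values were seen. The members and lists were chosen with earlier results of these data known, and the test of mouse numbers was added after seeing the data. The labels name mice and strains only, so p values measure the spread between these mice. Alternatives were another pseudocount, quantile normalization, mapping and tissue marker covariates, other tests, left-out mice and both CXB-6/ByJ columns as separate mice. A result on 1 listed gene is not reported here.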

Additional observations from a re-analysis of the deposited data

How the results depend on the processing

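The count of 7 genes that differed between strains became 3 with a Kruskal-Wallis test, where 73.0% of all genes passed in place of 74.9%. It was 1 without the second replicates and with place in the run of mouse numbers as a covariate, where 46.1% of all genes passed. With replicate 1, 2 or 3 left out of every strain it was 6, 0 and 6, where 54.9%, 45.6% and 61.4% of all genes passed. The count of 22 pairs ranged from 18 to 21 when a replicate was left out, and was 14 without the second replicates and with place as a covariate. The median number of other genes associated with a member, 2165.5, ranged from 79 to 661 when a replicate was left out, and was 1338 with mapping covariates, 688 with tissue marker sums, 308.5 with the first principal component, 408.5 with place, and 14 with place and without the second replicates. The median strain share of the 8 genes, 0.157, ranged from -0.055 to 0.297 when a replicate was left out, and was 0.247 with place and 0.042 with place and without the second replicates. The median strain-mean r, 0.277, lay between 0.256 and 0.378 under the alternatives run for it, which did not include the principal component or place without the second replicates. The 7 genes higher with a later place became 0 in the second and the third place alone, and the 3 genes higher in the second mouse of a run became 5 with mapping covariates, where Nr4a1 and Ier2 passed. The genes of the whole table called with place, 148 higher and 387 lower, were 74 and 238 with both CXB-6/ByJ columns as separate mice. The cause of these changes was not tested. Of the alternatives of these summaries, 70 stayed within 1.5 times, 17 did not and 1 turned negative. Of those for single genes, 15 lost a call.

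Mice could not be paired between strains, because the labels give strains no shared replicate numbers, and replicates were numbered in accession order. The mice of a strain were compared by their place in a run of mouse numbers instead. Alternatives with place, with the principal component, with both CXB-6/ByJ columns, and all on mouse numbers were chosen after seeing the data. FPKM without counts limit what can be said of low values, such as Junb near 0.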
